A study of Mus musculus with 24 samples.

Results

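The mitochondrial genome carries 37 genes, and all of them were rows of the count table whose names begin with mt-. They comprise 13 mRNAs for subunits of the respiratory chain and ATP synthase, 2 rRNAs of the mitochondrial ribosome and 22 tRNAs, out of 47593 genes in the table. Of the 37 genes, 28 had at least 1 count in some library, compared with 31032 genes of the whole table. The name rule did not use any measured value.

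The data were RNA sequencing of hippocampi from male mice aged 8 to 12 weeks on the C57BL/6J background. Mice labelled Tob-KO, from a line that lacks the antiproliferative gene Tob in the whole body, were compared with WT mice. Both genotypes had a naive group without conditioning and groups taken 15 min, 1 h and 3 h from contextual fear conditioning with tones and foot shocks, with 3 mice in each of the 8 groups and 24 libraries in all. Whether the mice of a group were littermates is not given in the sources used here.

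Mitochondrial DNA is transcribed from both strands as long polycistronic RNAs by a dedicated polymerase, and the tRNAs between the other genes mark where these precursors are cut. The mRNAs encode parts of complexes I, III, IV and V, whose other subunits are made from nuclear genes, so that both genomes contribute to respiration. Most mitochondrial mRNAs receive short poly(A) tails, which in several cases complete the stop codon. The rRNAs carry only a few added A bases, and tRNAs carry no poly(A) tail. Neurons depend heavily on respiration, and mitochondrial transcripts are abundant in brain RNA.

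The sequences below are from GENCODE's transcripts of GRCm38. The first set shows how the coding part of 4 mRNAs ends, because poly(A) selection retains RNA through added or encoded A runs. The capitals mark the last codon, or the single T where the codon is incomplete in the DNA. mt-Co1 ends with a complete TAA, while mt-Co3, mt-Nd4 and mt-Cytb end with a lone T.
mt-Co1 (chrM:6843-6872, forward): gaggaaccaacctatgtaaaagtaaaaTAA
mt-Co3 (chrM:9361-9390, forward): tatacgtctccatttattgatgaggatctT
mt-Nd4 (chrM:11515-11544, forward): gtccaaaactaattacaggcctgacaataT
mt-Cytb (chrM:15259-15288, forward): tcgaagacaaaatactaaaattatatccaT

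The next set shows the longest run of A in each rRNA, in capitals, since the rRNAs carry the main genotype difference described below. The run has 5 bases in mt-Rnr1 and 7 bases in mt-Rnr2, and mt-Rnr2 has 4 runs of 6 or more A where mt-Rnr1 has 0.
mt-Rnr1 (chrM:690-724, forward): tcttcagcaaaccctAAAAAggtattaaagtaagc
mt-Rnr2 (chrM:1473-1509, forward): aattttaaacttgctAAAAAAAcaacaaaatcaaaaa

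The last set shows sequence that members share with another gene, from which reads fit more than 1 gene. The gene for mt-Atp8 overlaps that for mt-Atp6 by the bases in capitals. The start of mt-Nd3 is set beside that of its nuclear copy Gm28438, and the capital marks the only base that differs over the aligned length (T3C, counted from the first base of mt-Nd3).
mt-Atp8 and mt-Atp6 (chrM:7917-7979, forward): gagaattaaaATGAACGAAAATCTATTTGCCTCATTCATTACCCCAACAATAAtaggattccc
mt-Nd3 (chrM:9459-9498, forward): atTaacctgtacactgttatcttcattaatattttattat
Gm28438 (chr1:24613080-24613119, reverse): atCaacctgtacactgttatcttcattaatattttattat

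Library totals ranged from 28847989 to 41595972 counts. The targeted gene, listed as Tob1, was at 33.9 to 44.5 CPM (normalised by edgeR's TMM factors) in WT and at 52.1 to 68.3 CPM in the libraries labelled Tob-KO. It was thus higher where the label says knockout (log2 fold change 0.56 ± 0.04 SE in 24 libraries, adjusted p = 1.17e-09, quasi-likelihood test of edgeR, Benjamini-Hochberg), so directions below refer to the labels. The 10 hippocampal neuron markers summed to 4510 to 6201 CPM, and all were counted. The libraries differed in the 16 markers of the choroid plexus, the tissue that makes cerebrospinal fluid, whose sum ran from 199 to 7474 CPM. These markers were high (score above 0) in 14 libraries, 6 WT and 8 labelled Tob-KO, and low in 10, among them every WT library at 15 min. In bulk tissue, fewer cells of a type and less RNA per cell cannot be told apart.

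Mitochondrial transcripts made up 3.14% to 4.31% of all counts, with a mean of 3.62% ± 0.26 (SD, n = 24). The mRNAs held most of this share, at 3.01% ± 0.23, the rRNAs held 0.602% ± 0.051, and the tRNAs held 0.00183% ± 0.000197. The share of the whole set was 3.68% ± 0.26 (n = 12) in WT and 3.55% ± 0.26 (n = 12) in libraries labelled Tob-KO, a difference smaller than the SD between libraries. In naive mice the group means were 3.66% ± 0.29 in WT and 3.29% ± 0.14 in Tob-KO (n = 3 each), and the groups overlapped. After 15 min the means were 3.83% ± 0.41 in WT and 3.78% ± 0.31 in Tob-KO, and the highest library of all was in this WT group. The means at 1 h were 3.58% ± 0.22 and 3.52% ± 0.05, and at 3 h they were 3.65% ± 0.11 and 3.62% ± 0.22, in each case within the spread of the mice.

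**Figure D1:**
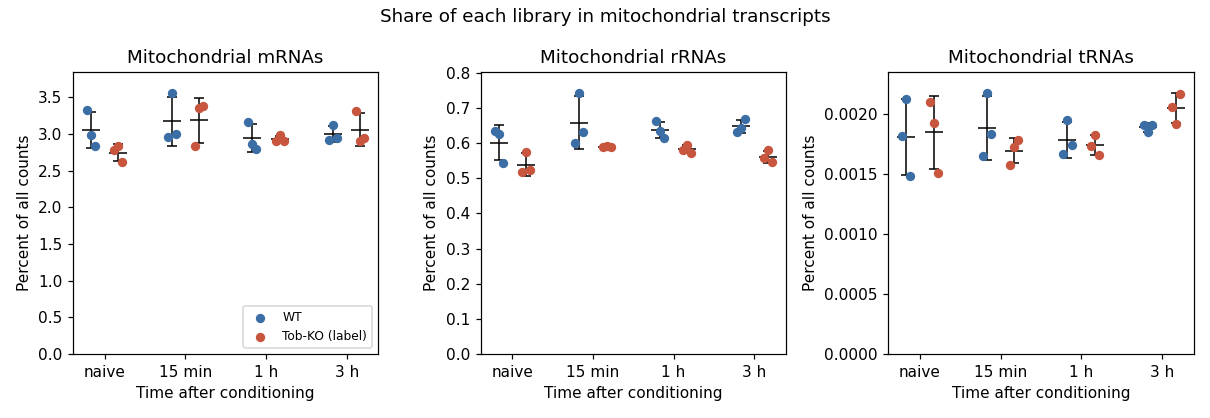
Percent of all counts in mitochondrial mRNAs, rRNAs and tRNAs (vertical axes) for each library by time after conditioning (horizontal axes); points are mice, and bars are mean ± SD of 3 mice. The rRNA shares of the Tob-KO libraries lie below those of WT at every time but naive, while the mRNA shares overlap at every time but naive and the tRNA shares at every time but 3 h, where Tob-KO lies above WT. Of all genes, 11.4% to 13.5% had groups apart in CPM at a time point.

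The rRNA share on its own was 0.636% ± 0.046 in WT and 0.568% ± 0.027 in Tob-KO (n = 12 each). In naive mice it was 0.633%, 0.627% and 0.545% in WT and 0.517%, 0.576% and 0.523% in Tob-KO, so that the groups overlapped. At 15 min it was 0.600%, 0.743% and 0.631% in WT and 0.590%, 0.592% and 0.588% in Tob-KO. At 1 h it was 0.662%, 0.635% and 0.615% in WT and 0.581%, 0.595% and 0.572% in Tob-KO. At both time points every Tob-KO library was below every WT library. The same held at 3 h, with 0.632%, 0.643% and 0.669% in WT and 0.558%, 0.579% and 0.546% in Tob-KO. Among all genes tested, 13.5% at 15 min, 11.5% at 1 h and 12.2% at 3 h had groups apart in CPM, in either direction. Set against the mRNAs of the same library, there were 20.9 ± 1.1 rRNA counts per 100 mRNA counts in WT and 19.1 ± 1.3 in Tob-KO. In naive mice this ratio was alike, at 19.7 ± 1.1 in WT and 19.6 ± 0.9 in Tob-KO (n = 3 each). It was 20.7 ± 0.4 and 18.6 ± 1.9 at 15 min, 21.7 ± 0.7 and 19.9 ± 0.15 at 1 h, and 21.6 ± 1.0 and 18.4 ± 1.5 at 3 h, and the groups overlapped in naive mice and at 15 min but not later.

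Within the mitochondrial counts, a few genes dominated. mt-Co1, the catalytic core of cytochrome c oxidase, took 34.3% ± 0.5 of them (SD, n = 24), mt-Cytb, the core of complex III, took 13.5% ± 0.4, and the complex I subunit mt-Nd5 took 11.5% ± 0.4. The large rRNA mt-Rnr2 took 11.4% ± 0.7 and the small rRNA mt-Rnr1 took 5.26% ± 0.41. For the 9 genes with the highest levels, shares within the mitochondrial set varied less between mice than levels did, whereas for mt-Co3, mt-Nd3 and 6 tRNAs, all counted far less, they varied more. The coefficient of variation of mt-Co1 within groups was 6.32% for its level and 1.20% for its share, and that of mt-Cytb was 8.38% and 2.22%. For mt-Rnr1 the values were closer, at 6.78% and 5.57%, and for mt-Rnr2 they were 5.79% and 4.35%.

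Per kb of annotated length, the order of mean levels began with mt-Co1 at 8037 ± 576 CPM per kb (SD, n = 24), then mt-Cytb at 4259 ± 351 and mt-Nd1 at 3471 ± 328. mt-Nd2 at 2757 ± 215 and mt-Rnr2 at 2606 ± 209 came next. These SDs are between libraries and not of the difference within a library, and the order of this pair was not tested. mt-Nd5 at 2278 ± 188, mt-Rnr1 at 1989 ± 198 and mt-Nd4 at 1743 ± 134 followed. Nuclear copies described below match parts of mt-Co1 and mt-Nd4, so the places of these genes in the order are uncertain. These 8 genes, which lie on the forward strand of the annotation, were each counted at least 48322 times in every library. mt-Nd6, the complex I subunit and the only mRNA annotated on the reverse strand, was far lower at 142 ± 14 CPM per kb, with 1854 to 3030 counts per library. Whether the counting used the strand is not given in the sources used here, so reads from the opposite strand cannot be told apart from mt-Nd6.

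**Figure D2:**
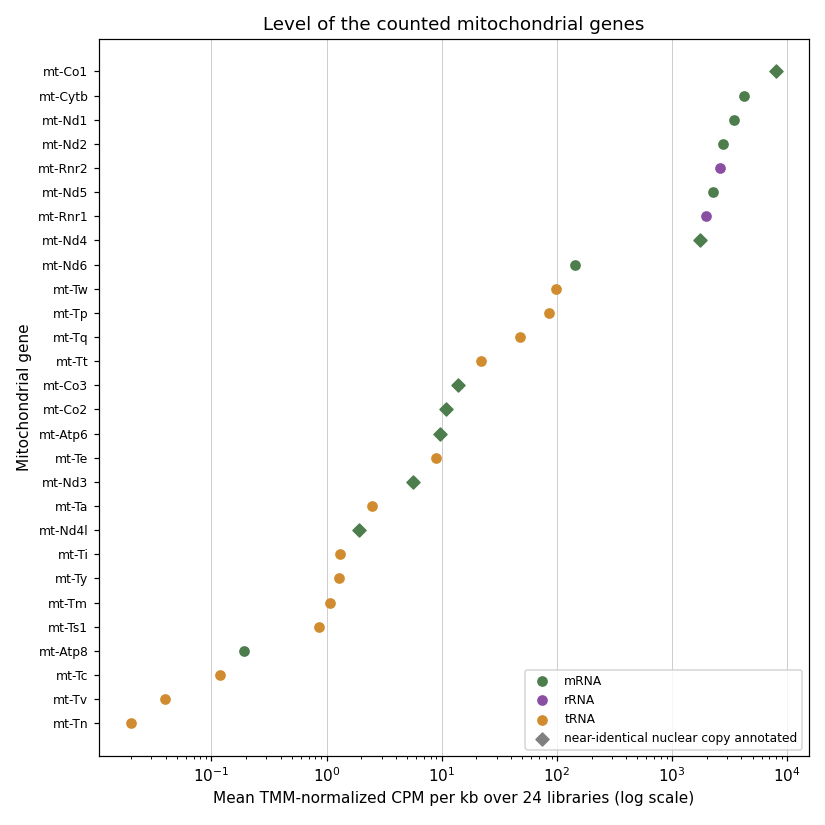
Mean TMM-normalized CPM per kb over 24 libraries (horizontal, log scale) for the 28 counted mitochondrial genes (vertical), coloured by kind; diamonds have an annotated nuclear copy that is nearly identical over all or part of the gene. The 8 highest genes lie at 1743 CPM per kb or more, whereas mt-Co3, mt-Co2, mt-Atp6, mt-Nd3 and mt-Nd4l lie at 13.8 or less.

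The remaining mRNAs were listed at very low levels. mt-Co3 (complex IV) was at 13.8 CPM per kb, mt-Co2 (complex IV) at 10.9, mt-Atp6 (ATP synthase) at 9.62, mt-Nd3 (complex I) at 5.68, mt-Nd4l (complex I) at 1.90 and mt-Atp8 (ATP synthase) at 0.191. They stand side by side in the genome, between mt-Co1 and mt-Nd4, with only tRNAs among them. A block of chromosome 1 of GRCm38 from 24611535 to 24616197, on the reverse strand, holds annotated pseudogenes that match this stretch. The aligned parts were 100% identical for mt-Co2 (Gm28661, 99.6% of the gene), mt-Atp6 (Gm10925, 99.6%), mt-Co3 (Gm28437, 99.9%) and mt-Nd4l (Gm10222, 294 of 297 bases). For mt-Nd3 the match was 99.7% (Gm28438, 99.1% of the gene).

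The copies were counted as well, some more and some less than the genes. Gm10925 had a median of 585.5 counts per library, Gm28437 had 480.5, Gm28661 had 376 and Gm28438 had 21.5. The medians were lower for mt-Atp6 (192.5 counts, 137 to 495), mt-Co3 (290, 221 to 1738) and mt-Co2 (234, 172 to 348) than for their copies, and higher for mt-Nd3 (64, 43 to 97). How reads that fit more than 1 place were counted is not given in the sources used here, so the levels of mt-Co2, mt-Atp6, mt-Co3, mt-Nd3 and mt-Nd4l are uncertain and cannot be compared with those of the other mRNAs. The search covered annotated transcripts only, so an unannotated copy of mt-Atp8, which lies between mt-Co2 and mt-Atp6, would be missed. The level of mt-Atp8 is therefore uncertain too. On chromosome 1 the copy covers 31.3% of mt-Co1 (Gm29216, with the single substitution A1066T counted from the first base of mt-Co1) and 63.6% of mt-Nd4 (Gm28439, 100% identical). The levels per kb of mt-Co1 and mt-Nd4 are thus uncertain as well, and so are the shares of the mitochondrial set. Less similar copies lie elsewhere: Gm13340 on chromosome 2 covers all of mt-Co1 at 97.6% identity and had 71 to 145 counts per library, and Gm13341 beside it covers all of mt-Co2 at 95.9% and had 5 to 16. Copies of all or part of mt-Cytb (Gm11410), mt-Nd5 (Gm11407 and Gm4076), mt-Nd2 (Gm13339) and mt-Nd6 (Gm11408) were 92.3% to 96.7% identical and had at most 7 counts in any library. No annotated transcript outside the mitochondrial genome matched an rRNA in the same direction at the limits used (60 bases, 90% identity). Matches in the opposite direction were left out of the search.

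Single libraries stood apart for a pair of these low genes. mt-Co3 had 1738 counts (58.0 CPM) in replicate 1 of Tob-KO at 1 h, while the other libraries had 221 to 431. Its nuclear copy Gm28437 had 417 counts in that library, within the 318 to 653 of the set. mt-Atp6 had 495 counts (13.9 CPM) in replicate 2 of Tob-KO at 15 min, and Gm10925 had 787 there. No other library of mt-Atp6 exceeded 290 counts.

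**Figure D3:**
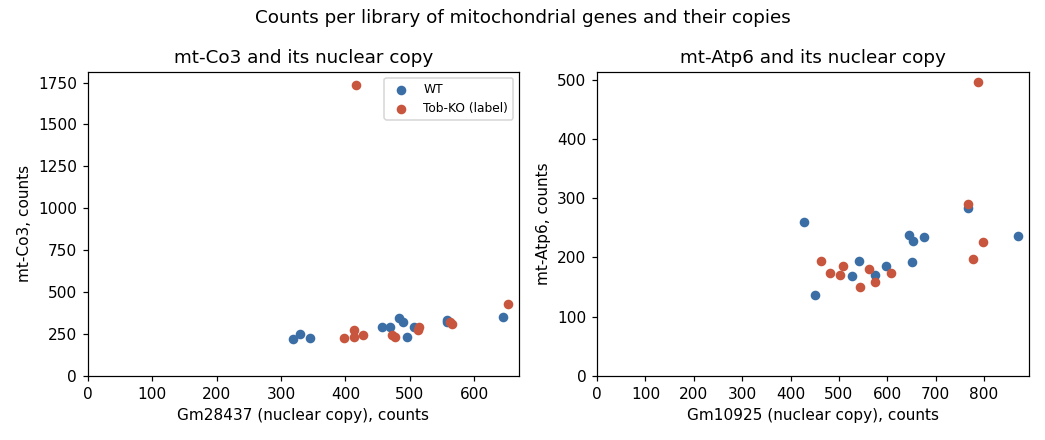
Counts of mt-Co3 and mt-Atp6 (vertical) against counts of their nuclear copies Gm28437 and Gm10925 (horizontal); each point is 1 library, coloured by the genotype label. One Tob-KO library lies at 1738 counts of mt-Co3 and another at 495 of mt-Atp6, away from the rest.

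The 22 tRNAs, each of 59 to 75 bases, were nearly absent from these poly(A) libraries. Of them, 9 had 0 counts in every library, which allows up to 3 counts per library, or 0.104 CPM at the lowest total, for counting error only. Among these, mt-Td, mt-Tk, mt-Tg and mt-Tr lie in the stretch between mt-Co1 and mt-Nd4 that has nuclear copies. Whether unannotated copies bear on their 0 counts was not tested. The most counted were mt-Tw (tRNA for tryptophan) at 6.64 ± 0.76 CPM, mt-Tp (proline) at 5.70 ± 0.78, mt-Tq (glutamine) at 3.43 ± 0.70, mt-Tt (threonine) at 1.47 ± 0.34 and mt-Te (glutamate) at 0.618 ± 0.150 (SD, n = 24). mt-Tw overlaps the end of mt-Nd2 by 2 bases, mt-Tq lies on the reverse strand opposite the end of mt-Ti, and mt-Tt begins at the base after mt-Cytb, so reads from neighbouring transcripts can fall on them. The remaining 8 tRNAs with counts averaged 5.58 counts per library or fewer.
mt-Tw (chrM:4950-5016, forward): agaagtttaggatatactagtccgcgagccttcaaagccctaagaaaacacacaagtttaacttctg
mt-Tq (chrM:3772-3842, reverse): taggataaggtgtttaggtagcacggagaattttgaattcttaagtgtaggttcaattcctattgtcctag

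With all time points in 1 fit, both rRNAs were lower in the libraries labelled Tob-KO, and no other member passed the test. mt-Rnr1 averaged 2035 ± 151 CPM in WT and 1764 ± 108 in Tob-KO (SD, n = 12 each), a log2 fold change of -0.21 ± 0.04 (SE). mt-Rnr2 averaged 4330 ± 318 CPM in WT and 3914 ± 184 in Tob-KO, a log2 fold change of -0.15 ± 0.03. The adjusted p-values were 0.00899 for mt-Rnr1 and 0.0419 for mt-Rnr2 in the quasi-likelihood test of edgeR on 24 libraries, fitted with a term for time (Benjamini-Hochberg). Of 22 members tested, 2 were past the FDR of 0.05 and both fell, against 0.456% of all 19500 genes past it in either direction and 0.169% past it and lower.

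In naive mice the libraries of mt-Rnr1 gave 1992, 1997 and 1758 CPM (WT) against 1582, 1837 and 1633 CPM (Tob-KO), with 1 WT library inside the Tob-KO range. At 15 min the libraries of this gene gave 1889, 2377 and 2004 CPM (WT) against 1873, 1844 and 1840 CPM (Tob-KO). The groups did not overlap at 15 min, although the lowest WT and the highest Tob-KO library were close. At 1 h the libraries of mt-Rnr1 gave 2159, 2071 and 1998 CPM (WT) against 1836, 1837 and 1741 CPM (Tob-KO). At 3 h the libraries of this gene gave 1990, 2043 and 2148 CPM (WT) against 1696, 1843 and 1605 CPM (Tob-KO). All Tob-KO libraries were below all WT libraries at both of these times. Groups apart in either direction were found for 13.5% of all genes at 15 min, 11.5% at 1 h and 12.2% at 3 h.

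mt-Rnr2, which forms the large ribosomal subunit, followed the same order with smaller differences. Its naive values were 4249, 4259 and 3670 CPM (WT) against 3557, 3897 and 3558 CPM (Tob-KO). At 15 min the libraries of this gene gave 4053, 5015 and 4289 CPM (WT) against 3981, 4044 and 4064 CPM (Tob-KO). The groups overlapped in naive mice and at 15 min. At 1 h the libraries of this gene gave 4455, 4316 and 4253 CPM (WT) against 3974, 4136 and 3936 CPM (Tob-KO). At 3 h the libraries of this gene gave 4338, 4440 and 4621 CPM (WT) against 3945, 4032 and 3847 CPM (Tob-KO). At these later times the groups did not overlap, where 11.5% and 12.2% of all genes were apart in either direction.

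**Figure D4:**
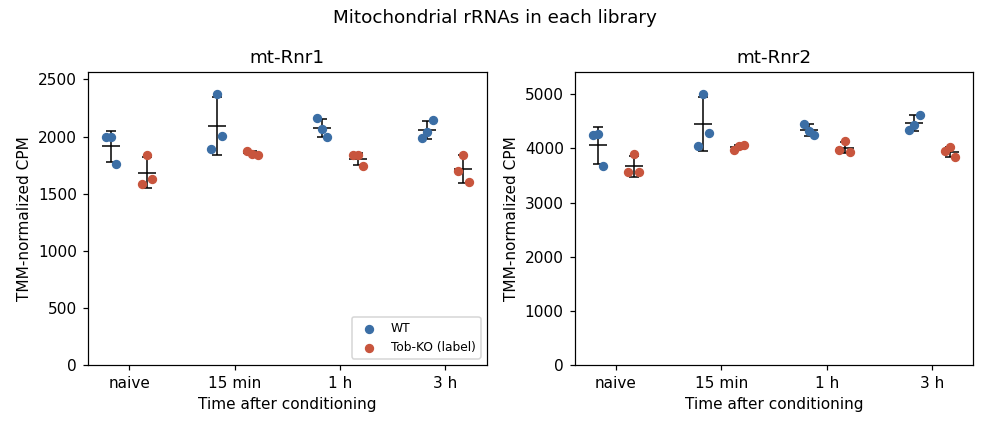
TMM-normalized CPM (vertical, from 0) of mt-Rnr1 and mt-Rnr2 in each library by time after conditioning (horizontal); points are mice, and bars are mean ± SD of 3 mice. Tob-KO libraries lie below WT at 1 h and 3 h for both rRNAs, with WT means of 2076 and 2060 CPM and Tob-KO means of 1805 and 1715 CPM for mt-Rnr1. Groups were apart for 11.5% and 12.2% of all genes at these times.

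The call of mt-Rnr2 was close to the threshold. It was lost when any of 17 of the 24 libraries was left out (adjusted p up to 0.0770, edgeR's quasi-likelihood test), and held only without replicate 3 of WT naive, replicates 1 or 3 of WT 15 min, replicate 1 of WT 1 h, replicate 2 of Tob-KO naive, replicate 2 of Tob-KO 1 h or replicate 1 of Tob-KO 3 h. The call of mt-Rnr1 held without each of the 24 (adjusted p from 0.00306 to 0.0223).

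Choroid plexus RNA and RNAs without a poly(A) tail differed between libraries as well. The summed choroid plexus markers were at 761 CPM (median; 199 to 4679) in WT and 3398 CPM (243 to 7474) in Tob-KO, with none of the 16 at 0 throughout. With their score as a covariate, the log2 fold changes were -0.22 for mt-Rnr1 and -0.16 for mt-Rnr2. Among the 10 libraries low in these markers they were -0.21 ± 0.07 and -0.16 ± 0.07 (SE). Among the 14 high in them they were -0.21 ± 0.04 and -0.15 ± 0.03. By edgeR neither passed the FDR in the low set (adjusted p = 0.450 and 0.563 for mt-Rnr1 and mt-Rnr2) or the high set (0.135 and 0.446). Of all genes, 3 of 18749 passed in the low set and 5 of 19008 in the high set. Why the calls were lost was not tested. The 12 RNAs that lack a poly(A) tail summed to 2.11 CPM (median; 0.631 to 7.99) in WT and 1.14 CPM (0.434 to 5.36) in Tob-KO, and 2 of the 12 were at 0 in every library. With their score as a covariate the log2 fold changes were -0.20 and -0.14, and the adjusted p-values 0.0160 and 0.0612. Without the 15 min libraries they were -0.22 and -0.15, with adjusted p-values of 0.0244 and 0.140.

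No gene of the other marker lists passed the FDR between genotypes in the 24 libraries by edgeR. At an unadjusted p under 0.05 there were 5 of 5 red cell markers (lower), 3 of 6 astrocyte markers (lower), 2 of 10 neuron, 2 of 6 oligodendrocyte, 1 of 6 microglia and 1 of 5 thalamus markers (higher) and 0 of the endothelial and striatum markers, and DESeq2 put 3 red cell markers past the FDR. Summed red cell markers were at 61.1 CPM (median; 42.1 to 132) in WT and 45.3 CPM (35.8 to 62.6) in Tob-KO, with means of 66.1 and 46.8 CPM. The mean sums of the other lists, WT first, were 2148 and 2042 CPM for astrocytes, 5140 and 5270 CPM for hippocampal neurons, 5319 and 5547 CPM for oligodendrocytes, 302 and 309 CPM for microglia, 193.0 and 179 CPM for endothelium, 77.5 and 83.6 CPM for striatum and 115 and 125 CPM for thalamus. Of the neuron markers, 9 of 10 had a log2 fold change above 0. The part of these other lists in the rRNA difference was not tested.

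At each time point taken alone, no member was called between genotypes by edgeR's exact test in 6 libraries. With the FDR limit of 0.05 and the fold change limit of 2, 0 of 20 members were called in naive mice, 0 of 20 at 15 min, 0 of 19 at 1 h and 0 of 22 at 3 h, against 0.0218%, 0.555%, 0.033% and 0.0274% of all genes tested. With the FDR alone the members' counts were again 0, against 0.0381%, 0.746%, 0.121% and 0.0657% of all genes. At an unadjusted p under 0.05, the counts of members were 0, 0, 2 and 2 in that order. DESeq2 put mt-Rnr1 past the FDR at 1 h and both rRNAs at 3 h, and no member in naive mice or at 15 min. It put 28 of 18169 genes past the FDR at 1 h and 27 of 18255 at 3 h.

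The log2 fold changes of the rRNAs were negative at every time point. Those of mt-Rnr1 were -0.18 ± 0.09 in naive mice, -0.17 ± 0.08 at 15 min, -0.20 ± 0.05 at 1 h and -0.27 ± 0.06 at 3 h (SE from the quasi-likelihood fit). Those of mt-Rnr2 were -0.14 ± 0.09, -0.14 ± 0.08, -0.11 ± 0.05 and -0.18 ± 0.05. The 6 mRNAs with the most counts, a set chosen after their counts were seen (mt-Co1, mt-Cytb, mt-Nd1, mt-Nd2, mt-Nd4 and mt-Nd5), had values closer to 0 after conditioning. Their log2 fold changes ran from -0.21 to -0.10 in naive mice, from -0.03 to 0.05 at 15 min, from -0.05 to -0.00 at 1 h and from -0.01 to 0.07 at 3 h. None of these passed the FDR.

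**Figure D5:**
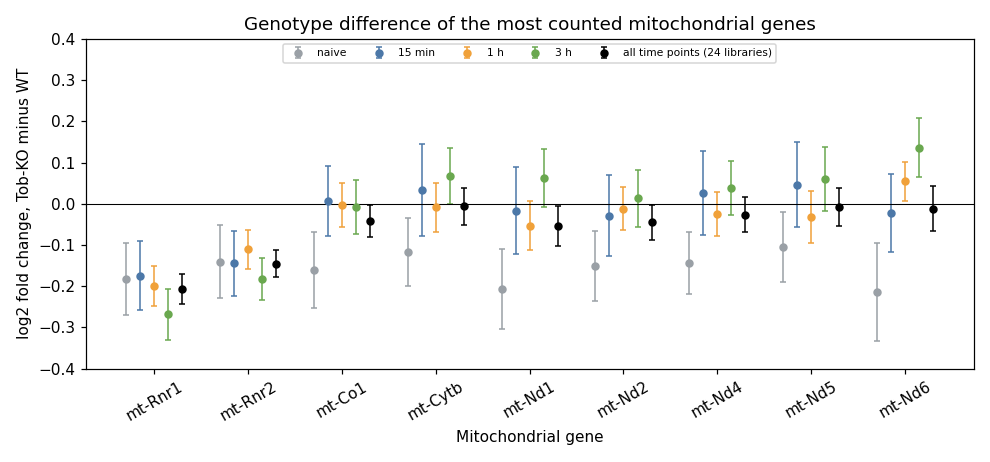
Log2 fold change of Tob-KO against WT (vertical) for the rRNAs and the 7 most counted mRNAs (horizontal) at each time point (6 libraries) and over all time points (24 libraries); bars are SE. The rRNAs lie at -0.11 to -0.27 throughout, whereas the mRNAs lie below 0 in naive mice and between -0.05 and 0.14 at the later times.

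Over all 13 mRNAs, 12 passed the filter on low values at each time point, and mt-Atp8 did not. Their log2 fold changes ran from -0.29 (mt-Nd4l) to -0.00 (mt-Atp6) in naive mice and from -0.10 (mt-Co3) to 0.40 (mt-Atp6) at 15 min. They ran from -0.33 (mt-Nd4l) to 1.48 (mt-Co3) at 1 h and from -0.19 (mt-Atp6) to 0.14 (mt-Co2) at 3 h. Without the single libraries named above, the value of mt-Atp6 at 15 min was -0.03 and that of mt-Co3 at 1 h was -0.12. Among tRNAs, the largest value was that of mt-Tm (methionine) at 3 h, 1.47 ± 0.98, on at most 7 counts in any library.

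Groups that did not overlap were found for 2 of 20 members in naive mice, against 11.4% of all genes, and for 1 of 20 at 15 min, against 13.5%. They were found for 3 of 19 at 1 h, against 11.5%, and for 3 of 22 at 3 h, against 12.2%. In naive mice these were mt-Co1 and mt-Nd4, both lower in Tob-KO. mt-Co1 was at 13413, 12395 and 11564 CPM (WT) against 11260, 11418 and 10654 CPM (Tob-KO). At 15 min it was mt-Rnr1, and at 1 h and 3 h both rRNAs and mt-Tq, the last being higher in Tob-KO. mt-Tq was at 2.78, 3.03 and 3.10 CPM (WT) against 3.64, 3.16 and 3.12 CPM (Tob-KO) at 1 h, with counts of 91 to 120.

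No member passed the FDR between naive mice and a later time point. With the genotypes in 1 fit (24 libraries, edgeR's quasi-likelihood test with a term for genotype), 0 of 22 members passed at each of 15 min, 1 h and 3 h, against 4.7%, 6.15% and 0% of all genes. At an unadjusted p under 0.05 there were 6 members at 15 min, all higher than naive, 4 at 1 h, of which 3 were higher, and 2 at 3 h, both higher. The share of all genes under that limit is not given here, so nothing particular to the members is read from these counts. DESeq2 put mt-Co1 and mt-Rnr2 past the FDR at 15 min, where it put 1394 of 19500 genes past it, and no member later. The 15 min values were 13101 CPM against 11784 in naive mice for mt-Co1 (log2 fold change 0.15 ± 0.05) and 4241 CPM against 3865 for mt-Rnr2 (0.13 ± 0.05), with adjusted p-values of 0.103 and 0.0950 by edgeR's quasi-likelihood test. Leaving out replicate 1 of WT naive put mt-Co1 and mt-Nd1 past the FDR there, and leaving out replicate 1 of WT 15 min put mt-Rnr2 past it. Marker genes of other cells moved in the same comparison: 3 of 6 endothelial, 2 of 6 astrocyte and 1 of 5 thalamus markers rose at 15 min, and the 16 choroid plexus markers had a median log2 fold change of -1.30 with none past the FDR. Their part in the mitochondrial values was not tested.

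At 3 h the largest shift among members with at least 81 counts in each library was that of mt-Tq, whose own lowest count sets this limit. In naive mice the libraries of this gene gave 2.94, 3.41 and 2.69 CPM (WT) against 3.67, 3.52 and 2.56 CPM (Tob-KO). At 3 h the libraries of this gene gave 4.24, 3.92 and 3.46 CPM (WT) against 4.87, 4.75 and 4.82 CPM (Tob-KO). All 6 libraries at 3 h but 1 were above all naive libraries, and the share of all genes set apart as well is not given here. The log2 fold change of mt-Tq over both genotypes was 0.47 ± 0.11, with an adjusted p of 0.365 by edgeR's quasi-likelihood test, so it did not pass. Among all tRNAs tested in this comparison the largest log2 fold change was 0.785.

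Within a genotype (6 libraries, edgeR's quasi-likelihood test), no member passed the FDR either. In WT, 0 of 20 members passed at 15 min, 0 of 19 at 1 h and 0 of 20 at 3 h, against 0%, 0.148% and 0% of all genes. In Tob-KO, 0 of 20, 0 of 19 and 0 of 21 passed, against 0.0272%, 0.671% and 0% of all genes. At an unadjusted p under 0.05 there were 0, 1 and 1 members in WT and 3, 0 and 2 in Tob-KO. DESeq2 put mt-Co1 past the FDR in Tob-KO at 15 min, where it put 389 of 18352 genes past it, and no other member. These comparisons share the naive mice of their genotype.

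The 6 most counted mRNAs had log2 fold changes of 0.18 to 0.28 at 15 min in Tob-KO and of 0.03 to 0.08 in WT. At 1 h the ranges were 0.04 to 0.13 in Tob-KO and -0.07 to -0.01 in WT, and at 3 h they were 0.14 to 0.22 and -0.04 to 0.02. The naive Tob-KO mice, in which these mRNAs were lowest, enter every Tob-KO value. The difference of these changes between genotypes was tested as an interaction over 12 libraries, and 0 of 20 members passed the FDR at 15 min, 0 of 20 at 1 h and 0 of 22 at 3 h, against 0.00526%, 0% and 0% of all genes (edgeR's quasi-likelihood test). At an unadjusted p under 0.05 there were 0, 0 and 1 members, and by DESeq2 none passed the FDR.

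No nuclear gene listed for mitochondrial DNA and RNA passed the test between genotypes. Of 10 genes for mtDNA transcription, 13 for its replication, 21 for RNA processing and decay and 10 regulators of mitochondrial biogenesis, 0 passed the FDR in the 24 libraries by edgeR, and 0, 2, 4 and 1 had an unadjusted p under 0.05. DESeq2 put Tbrg4 of the processing list and Esrra of the regulators past the FDR, both named after their values were seen. The median log2 fold changes of these lists were -0.01, -0.01, -0.02 and -0.03, beside -0.00 over all genes. Polrmt, the mitochondrial RNA polymerase, was at 29.5 CPM in WT and 29.8 in Tob-KO.

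With time, 3 of these genes passed the FDR at 15 min and 5 at 1 h, where 4.7% and 6.15% of all genes passed, and nothing particular to these lists is read from the counts. At 15 min, Polrmt (log2 fold change -0.14 ± 0.04), the transcription and ribosome factor Mterf3 (-0.28 ± 0.08) and the mtDNA polymerase subunit Polg (-0.14 ± 0.03) fell relative to naive mice. At 1 h, Mterf1a, which encodes a termination factor, fell (-0.54 ± 0.12), as did the single-stranded DNA binding protein gene Ssbp1 (-0.32 ± 0.07), the RNA binding Fastk (-0.13 ± 0.03) and the biogenesis factor subunit Gabpb1 (-0.21 ± 0.06). The transcription factor gene Creb1 rose (0.17 ± 0.04). In all, 2 of 10 transcription genes and 1 of 13 replication genes fell at 15 min, and at 1 h 1 of each of these lists, 1 of 21 processing genes and 1 of 10 regulators fell and 1 of 10 regulators rose. None passed at 3 h by edgeR or DESeq2, and 0, 2, 1 and 2 had an unadjusted p under 0.05. The calls of Mterf1a, Ssbp1 and Creb1 held without each library in turn, whereas those of Polrmt and Mterf3 were each lost in 19 of the 24 such fits and with the replicate number as a block.

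Of the nuclear subunits of the respiratory chain, only some of complex I passed by edgeR. Against 4.7% and 6.15% of all genes called in either direction, 4 of its 36 subunits rose at 15 min and 1 at 1 h. These were Ndufb9 (0.15 ± 0.04), Ndufs8 (0.13 ± 0.04), Ndufb3 (0.18 ± 0.04) and Ndufb8 (0.21 ± 0.06) at 15 min and Ndufa9 (0.10 ± 0.02) at 1 h. The calls of Ndufb8, Ndufs8, Ndufb9 and Ndufb3 were lost in 15, 10, 6 and 3 of the 24 fits that left out a library, and those of Ndufb8 and Ndufs8 also with the replicate number as a block. None of 9 complex III, 11 complex IV and 17 complex V subunits passed in the 24 libraries at any time or between genotypes by edgeR. At an unadjusted p under 0.05 there were 2, 6 and 7 of them at 15 min and 3, 3 and 10 at 1 h. All of these were higher than naive. At 3 h there were 1, 0 and 1, and between genotypes 0, 3 and 1, the latter all lower in Tob-KO. Of complex I there were 17 at 15 min (all higher), 11 at 1 h (10 higher) and 7 at 3 h (all higher). Between genotypes there were 7 of complex I, all lower in Tob-KO. Without the share of all genes under that limit, nothing particular to these subunits is read from the counts. DESeq2 put 0, 2 and 2 subunits of complexes III, IV and V past the FDR at 15 min. At 1 h these counts were 1, 0 and 2. Of complex I, 6 passed by DESeq2 at 15 min and 3 at 1 h. None of any complex passed by DESeq2 at 3 h or between genotypes. Uqcrc1, a core subunit of complex III, was at 209 CPM in WT and 203 in Tob-KO. Cox4i1, a structural subunit of complex IV, was at 363 CPM in WT and 349 in Tob-KO, and Atp5b, the catalytic subunit of ATP synthase, at 1057 and 1047 CPM. Of the RNAs without a poly(A) tail, 4 were tested and 0 passed between genotypes by edgeR or DESeq2, with 0 at an unadjusted p under 0.05. The median log2 fold changes between genotypes were -0.05 for complex I, -0.04 for complex III, -0.06 for complex IV and -0.04 for complex V, none of which is a test. Values were below 0 for 32 of 36, 9 of 9, 11 of 11 and 16 of 17 subunits in that order. The share of all genes below 0 is not given here.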

How the data were processed

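Poly(A) RNA of 24 hippocampi was sequenced from directional paired-end libraries. Per the labels, STAR 2.6.1d aligned reads to GRCm38 and HTSeq 0.9.0 counted them by gene. The values deposited by the authors are raw counts per gene, without normalization. The annotation release, strand setting and handling of multimapping reads are not given in the sources used here. PCR reads are not independent molecules, so floors cover counting error only.

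Genotypes were compared at each time point with edgeR 4.0.16 (R 4.3.3) by the exact test after TMM normalization, with at least 0.2 CPM in 2 libraries, an FDR of at most 0.05 and, for calls, a 2-fold change. Other comparisons used the quasi-likelihood test and the FDR. Models were fitted over all genes and tested on simulated data. Alternatives were DESeq2 1.42.0, other scalings, no filter, a replicate block and leaving out each library; fits without the 15 min, choroid-rich or choroid-poor libraries, or with a list score as a covariate, were chosen after seeing the data. Shares, levels and compositions were not tested. Counts at an unadjusted p under 0.05 are given without the share of all genes, so they do not set members or lists apart. p-values rest on the spread between mice of a group, which edgeR moderates across genes. In the fits over 24 libraries they also rest on any departure from additive effects of genotype and time.

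Groups came from the sample labels. Same-numbered replicates deviated together in 1 of 10 comparisons, Tob-KO at 15 min against naive (correlations 0.578, 0.618 and 0.183). The labels do not state that these mice were paired. Their choroid plexus scores were also alike by number, at -1.90, 2.67 and 1.76 in naive mice and -1.95, 2.18 and 0.88 at 15 min. The part of these scores in the correlations was not tested. Nuclear copies were sought with BLAST 2.17.0 against annotated transcripts (60 bases, 90% identity) in place of the planned search of chromosomes. Only matches in the direction of the transcript were kept, and a limit on the E-value also applied. Named genes were all 37 members, Tob1, the copies with most counts and, per pathway list, the genes past the FDR over 24 libraries (where none or more than 4 passed, up to 4 of the highest). Members and lists were chosen with earlier results of these data known. The score of a list is the mean of log2(CPM + 0.5) over its genes, centred per gene.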

Additional observations from a re-analysis of the deposited data

Results flagged for a closer look

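mt-Ty, the tRNA for tyrosine, was the only member whose CPM values of the genotypes did not overlap in opposite directions at different time points. In naive mice it had 2, 2 and 0 counts in WT and 4, 3 and 5 in Tob-KO. At 15 min it had 3, 4 and 1 counts in WT and 0, 1 and 0 in Tob-KO, where the mean was 0.00934 CPM. In counts the 15 min groups met at 1, and they were apart in CPM only through library size, since 1 count was 0.0320 CPM in the WT library and 0.0280 CPM in the Tob-KO library. All of these counts are near or under the floor of 3 counts for several libraries, and the difference between the time points was not tested.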

How the results depend on the processing

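The 2 calls over all time points became 1 with no filter on low counts, where mt-Rnr2 had an adjusted p of 0.0502, and ranged from 1 to 2 when a library was left out. Among alternatives chosen after seeing the data, the calls were 1 without the 15 min libraries, 1 with the score of RNAs that lack a poly(A) tail as a covariate, 2 with the choroid plexus score, 0 without the choroid-rich libraries and 0 without the choroid-poor ones. With DESeq2 there was 1 member past the FDR between genotypes at 1 h, 2 at 3 h, 1 in Tob-KO at 15 min against naive and 2 at 15 min over both genotypes, in place of 0. Of all genes, DESeq2 put 28, 27, 389 and 1394 past the FDR in these comparisons. Leaving out a library gave 0 to 2 members at 15 min over both genotypes. No called member changed direction. Over all genes, the 89 past the FDR between genotypes over all time points became 293 with DESeq2 and 41 to 141 without a library. mt-Co1 took 41.2% of the counts of the mRNAs alone.

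The replicate block left 2 members past the FDR over all time points and 0 in the other comparisons, so it changed no call of a member, but the 15 min calls of Polrmt, Mterf3, Ndufs8 and Ndufb8 were lost. Over all genes it raised the count from 5 to 73 in Tob-KO at 15 min, where same-numbered replicates deviated together. Where they did not, it lowered WT at 1 h from 27 to 5 and raised WT at 15 min from 0 to 18. The genotype counts went from 137 to 8 at 15 min, 22 to 1 at 1 h and 12 to 0 at 3 h. In naive mice they went from 7 to 1. The block fits of genotype used the quasi-likelihood test, the others the exact test, so test and block cannot be told apart there. Few or 0 counts limit most of the tRNAs but not the rRNAs. mt-Tw, mt-Tp and mt-Tq had at least 81 counts in each library.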
